A study of Mus musculus with 3 samples.

Results

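The expression profile examined here is that of calcitriol, 1,25(OH)2D3, against vehicle in mpkDCT cells, a mouse cell line of the distal convoluted tubule of the kidney. Its members are the 2 arrays of the 3 in the series that carry these treatments, and the 16654 genes, of 36335 named on the array, whose probe was well above background on both. In every group, the vehicle group included, the cells carried a CRISPR-Cas9 knockout of Cyp27b1, the gene of the enzyme that makes calcitriol from calcidiol, 25(OH)D3. Cells spent 24 h in medium that lacked phenol red and held 2% charcoal-stripped serum, and then 24 h in that medium with vehicle, with 1e-07 M calcitriol or with 1e-07 M calcidiol. Each treatment was measured once, so the differences below have no replicate behind them and were not tested. Whether the knockout cells are 1 clone, and what the tag siCT in the sample titles means, is not stated in the sources used here. The description of the calcidiol sample writes 25(OH)2D3 where its treatment label and the protocol write 25(OH)D3, and the design text calls the line mDCT where the sample labels say mpkDCT. The calcidiol array is given beside the other 2. Both hormone arrays are set against the same vehicle array, so their differences from it are not independent.

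Calcitriol binds the vitamin D receptor, a nuclear receptor that pairs with a retinoid X receptor on DNA and recruits coregulators to nearby genes. A gene's transcript can therefore be raised or lowered by the receptor itself or by the products of its target genes. In the distal convoluted tubule the hormone is known for its hold on calcium reabsorption, through the entry channel Trpv5, the carriers of calcium in the cytosol Calb1 and S100g, and enzymes such as Cyp24a1 that end its own action.

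The targeted gene and the cell type were checked first. The Cyp27b1 probe read 2.91 with vehicle, 7.05 with calcitriol and 3.82 with calcidiol and was well above background on none of the arrays; where it lies relative to the edit is not stated, so it checks nothing. Of 17 markers of the distal convoluted tubule, 11 stayed at background on all 3 arrays, among them the thiazide-sensitive cotransporter Slc12a3, the channels Trpm6 and Trpv5, the calcium-binding protein Calb1 and the co-receptor Kl. The kinases Wnk1, Wnk4 and Stk39 and the growth factor gene Egf were measured on both arrays. The general epithelial markers Cdh1, Epcam, Krt8, Krt18 and Krt19 also stayed at background on all 3 arrays, whereas Cdh16, the kidney-specific cadherin, read 15055 with vehicle, 10867 with calcitriol and 12705 with calcidiol. Most defining markers of the labelled cell type, and those of epithelia in general, were therefore not readable in these cultures. In RNA from a whole culture, fewer cells of a type and less RNA per cell cannot be told apart.

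The 2 arrays read signals of similar range. Their 75th percentiles, to which the levels are scaled, were 371.1 and 379.8, and 51.0% and 49.9% of spots were well above background. Spots of probes printed 10 times varied by a median of 7.37% (coefficient of variation) with vehicle, 9.76% with calcitriol and 3.76% with calcidiol. Signals below are the scanner's processed signals before scaling, and differences are calcitriol minus vehicle on the log2 scale after it. A value after ± is the technical error the scanner software assigns, with a median of 0.20 per gene, and not a spread between cultures.

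Most transcripts differed little between the 2 arrays. The median difference was -0.00, the quartiles were -0.20 and 0.16, and 86.9% of genes lay within 0.5 of 0. By size, calcitriol exceeded vehicle by at least 2-fold for 160 genes (0.961% of genes measured) and vehicle exceeded calcitriol by as much for 270 (1.62%). At 1.5-fold these were 563 genes (3.38%) and 1040 genes (6.24%). At 3-fold the balance turned, with 66 genes higher (0.396%) and 47 lower (0.282%). Higher genes made up 37.2% of those 2-fold apart with scaling on the 75th percentile, 54.7% with centring on the array median, a step that put the median over all genes 0.12 further up, and between 43.2% and 47.0% with quantile, loess or normexp normalisation, the deposited value table or an offset. A further 79 genes were higher and 108 lower by a bound of 2-fold or more, because only 1 of the 2 arrays read them well above background.

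**Figure D1:**
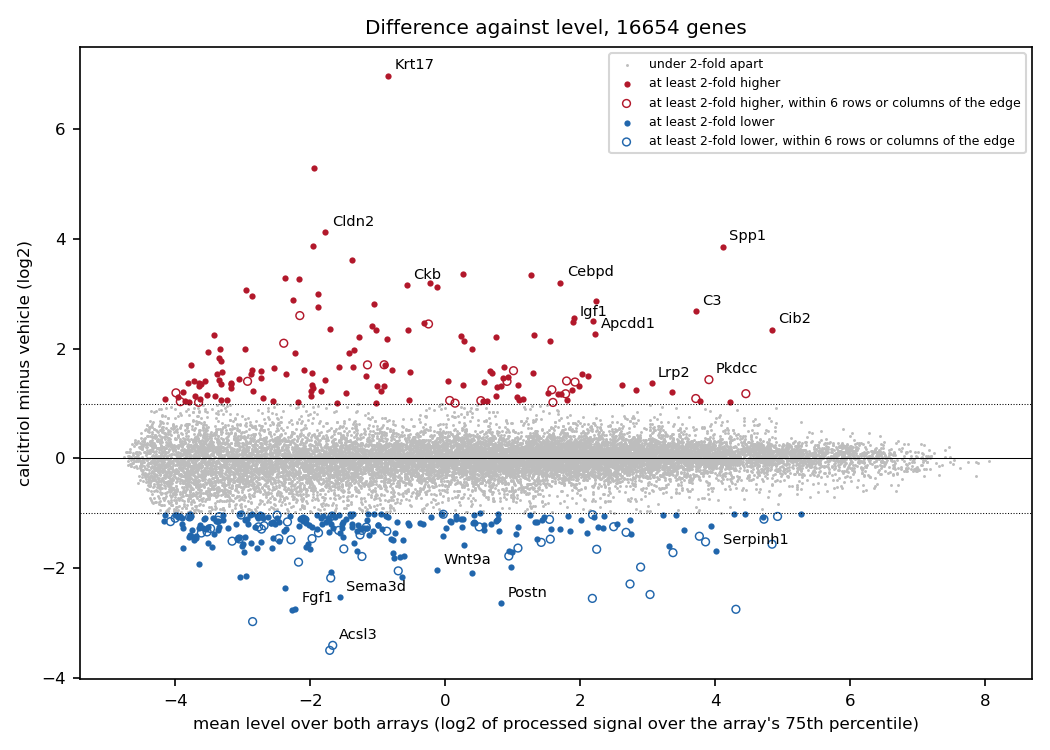
Each point is a gene, with its mean level over the vehicle and calcitriol arrays on the horizontal axis and its log2 difference, calcitriol minus vehicle, on the vertical axis; dotted lines mark 2-fold. Of 16654 genes, 160 lie above the upper line and 270 below the lower one, and open circles mark the 22 and 56 of them whose spot lay near the edge, at most 6 rows or columns in.

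Dim signals and spots near the edge held more than their share of the genes that were 2-fold apart. In the dimmest of 4 equal bins of signal 1.61% of genes were 2-fold higher and 2.98% lower, against 0.264% and 0.552% in the brightest. Of the lower genes 20.7% and of the higher genes 13.8% were read within 6 rows or columns of the edge, against 9.41% of all genes. Leaving out both kinds left 13007 genes, 88 of them higher and 145 lower. Of the genes ranked 11 to 60 in each direction, 34 higher and 20 lower ones lay clear of the edge and of the dimmest signals, and most of these are described by name below.

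A check within the arrays came from genes read by more than 1 probe. Of 47 higher genes with another measured probe, 45 had the other probes on the same side of 0 on average, and in 28 every probe was at least 2-fold higher. Of 62 lower genes, 57 had the same sign and in 21 every probe was at least 2-fold lower. The milk protein gene Csn3 had probes that disagreed, at 2.96 by its brightest probe and -0.45 by the other, as did Spats2l at 1.62 and -0.18. In the lower direction the agrin receptor gene Lrp4 gave -1.12 and 0.58, while Grik5, Fam3c and Noa1, whose other probes were above 0, were read within 2 rows or columns of the edge. These 6 genes and Pon2, at -1.25 and 0.08, are all that had other probes of the opposite sign on average.

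**Figure D2:**
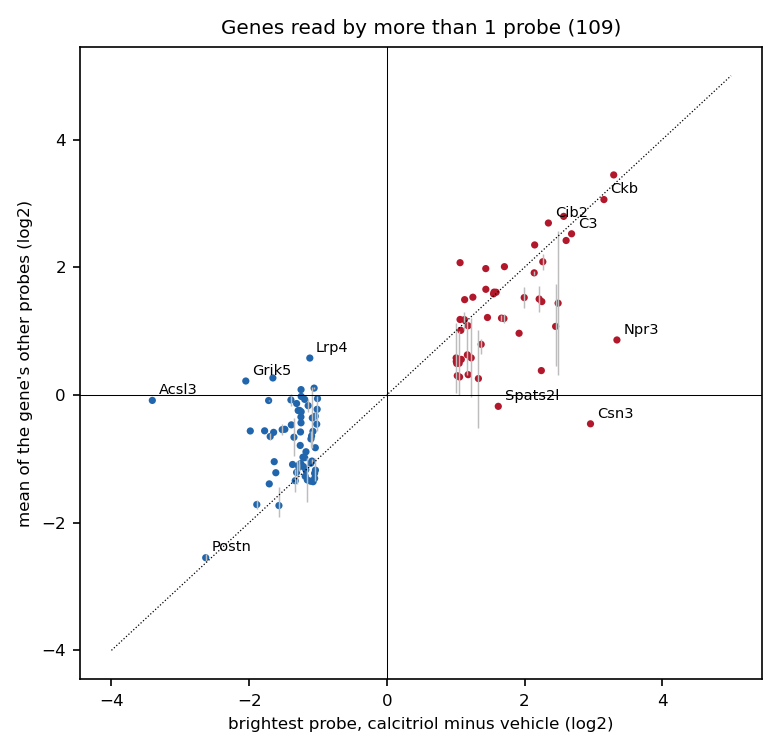
Each point is a gene at least 2-fold apart by its brightest probe (horizontal axis, log2) that has other measured probes, whose mean is on the vertical axis and whose range is the grey bar; the dotted line marks equal values. Ckb, C3 and Cib2 lie near the line at 3.15, 2.68 and 2.35, whereas Npr3, at 3.34 and 0.86, and Acsl3, at -3.41 (5 rows or columns from the edge) and -0.09, lie far from it.

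Known vitamin D receptor targets separated into a few very large differences and many genes with little or none. Of 38 such genes on the array, 20 were measured on both arrays. Of these, 2 were at least 2-fold higher and 2 lower, against 0.961% and 1.62% of all genes. Their median was 0.04, against a median of -0.00 over all genes. Cyp24a1 and S100g were higher by a bound and 15 were not read well above background. Cyp24a1, the 24-hydroxylase that degrades the hormone, read 2.68 with vehicle, 5443 with calcitriol and 288 with calcidiol, so that calcitriol exceeded vehicle by a factor of at least 398. S100g, the cytosolic calcium carrier calbindin-D9k, read 3.45, 200.5 and 81.0 on the same arrays and was at least 14.7-fold higher. Cldn2, which forms cation-permeable tight junctions, read 26.0 with vehicle, 463 with calcitriol and 118 with calcidiol, a difference of 4.12 ± 0.26. Spp1, the secreted mineral-binding protein osteopontin, read 1685 with vehicle, 25074 with calcitriol and 8938 with calcidiol, a difference of 3.86. For all 4 genes the calcidiol array lay between the other 2. On the other side, Cdkn1a, the cyclin-dependent kinase inhibitor p21, was 2.75-fold lower, with signals of 1579 with vehicle, 588 with calcitriol and 1182 with calcidiol, and the phosphatase gene Dusp10 was 2.12-fold lower.

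The sequences before the start sites of 4 higher genes are shown because the receptor pair binds direct repeats of a hexamer spaced 3 bases apart, the element named DR3. They are the 250 bases before the annotated start, 5′ to 3′ on the gene's strand, from RefSeq on GRCm38.p6, and capitals mark 4 hexamers on either strand. These are AGGTCA, the form given in textbooks, and the close relative AGTTCA, both with A as the first base. The other pair searched is GGGTCA and, with T in the middle, the relative GGTTCA. S100g lies at chrX:162964600-162964849 (minus strand), Cldn2 at chrX:139800558-139800807 (plus), Krt20 at chr11:99438154-99438403 (minus) and Itih3 at chr14:30923588-30923837 (minus).
S100g: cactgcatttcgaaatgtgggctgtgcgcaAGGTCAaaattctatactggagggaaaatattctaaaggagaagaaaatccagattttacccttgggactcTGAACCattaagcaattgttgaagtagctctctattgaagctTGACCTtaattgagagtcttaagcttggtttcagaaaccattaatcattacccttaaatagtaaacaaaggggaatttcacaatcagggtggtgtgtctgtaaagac
Cldn2: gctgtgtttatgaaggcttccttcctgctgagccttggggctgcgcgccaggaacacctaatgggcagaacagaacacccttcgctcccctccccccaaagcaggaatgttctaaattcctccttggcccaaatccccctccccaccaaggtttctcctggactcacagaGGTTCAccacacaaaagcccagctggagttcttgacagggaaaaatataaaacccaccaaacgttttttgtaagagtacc
Krt20: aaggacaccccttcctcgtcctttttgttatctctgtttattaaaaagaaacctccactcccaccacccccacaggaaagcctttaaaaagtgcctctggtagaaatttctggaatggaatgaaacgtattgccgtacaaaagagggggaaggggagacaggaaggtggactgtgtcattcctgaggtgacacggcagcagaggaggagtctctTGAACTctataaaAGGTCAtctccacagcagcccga
Itih3: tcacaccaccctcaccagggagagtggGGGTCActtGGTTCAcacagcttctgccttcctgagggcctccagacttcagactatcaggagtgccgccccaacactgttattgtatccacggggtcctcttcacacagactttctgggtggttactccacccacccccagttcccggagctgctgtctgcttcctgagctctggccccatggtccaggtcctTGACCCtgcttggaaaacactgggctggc
S100g holds 3 such hexamers, Cldn2 1, Krt20 2 and Itih3 3. Only in Itih3 do 2 of them form a DR3, beginning 223 bases before the start. Itih3, a heavy chain of the inter-alpha-trypsin inhibitor and chosen here after its values were seen, read 6.19 with vehicle, 30.0 with calcitriol and 21.3 with calcidiol and was at least 2.19-fold higher. At least 1 hexamer was present in 38.6% of all 32851 promoters of this length, in 33.8% of 13137 promoters of genes measured on both arrays, in 38.0% of 142 promoters of 2-fold higher genes and in 39.6% of 230 promoters of 2-fold lower genes. The DR3 was present in 0.0396% of all of them, in 0.00761% of those of measured genes, in none of the 142 or the 230 and in 1 of 53 promoters of genes higher by a bound. That 1 promoter is the one of Itih3, so the DR3 among the 4 shown adds nothing to this count. These windows are short, and distal elements were not examined.

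The receptor and its machinery were measured at nearly the same level on both arrays. Of 22 measured genes for the receptor, its partners and coregulators, none was 2-fold apart and the median was -0.05, with signs that turned under other scalings. Vdr, the receptor, read 1559.9 with vehicle, 1386 with calcitriol and 1379 with calcidiol, a difference of -0.20. The highest member was Tbl1xr1, part of a corepressor complex, at 0.32. Nrip1, a corepressor of nuclear receptors that was not in that list, was 2.18-fold higher, with signals of 523 with vehicle, 1169.8 with calcitriol and 909 with calcidiol, and its 4 other probes averaged 1.18. Among the carriers of vitamin D, the uptake receptor gene Lrp2 (megalin) read 1923 with vehicle, 5090.2 with calcitriol and 3812 with calcidiol, a difference of 1.37 beside a mean of 0.79 over 3 other probes. Gc, the vitamin D binding protein, read 101 with vehicle, 23.4 with calcitriol and 63.2 with calcidiol, a difference of -2.14 from a dim calcitriol signal.

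Calcium and magnesium transport genes other than S100g showed no 2-fold difference. Of 29 on the array 16 were measured, from Stim1, the calcium sensor of the endoplasmic reticulum, at -0.39 to Egf at 0.43, which lay near the edge. The calcium channels of the apical membrane, Trpv5 and Trpv6, were not read well above background. Among 20 measured genes of distal sodium, potassium and chloride transport, the kinase gene Sgk1, which stimulates sodium channels, was 2.63-fold higher (869 with vehicle, 2337 with calcitriol and 3105 with calcidiol) and the cotransporter gene Slc12a2 2.04-fold lower (2408 with vehicle, 1211 with calcitriol and 3049.6 with calcidiol). Both were read at the edge, Sgk1 in the outermost row or column and Slc12a2 in the sixth, and no other probe was measured for either.

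Other carriers with a higher signal move metals, amino acids or organic ions. Slc30a1, the zinc exporter of the plasma membrane, read 95.7 with vehicle, 443 with calcitriol and 239 with calcidiol, 4.52-fold higher with calcitriol. Of 32 measured metal-handling genes it was the only one to be 2-fold higher, and the zinc importer gene Slc39a4 was at least 3.06-fold higher by its bound, while the transferrin receptor gene Tfrc, which brings in iron, was 2.10-fold lower (1478 with vehicle, 720.1 with calcitriol and 1139 with calcidiol) and lower by its other probe too, at -1.36. Slc25a45, a mitochondrial carrier, read 571 with vehicle, 3467 with calcitriol and 1945 with calcidiol and was 5.93-fold higher, with 2.80 by a second probe beside 2.57. Slc7a3, a cationic amino acid transporter, read 50.5 with vehicle, 264 with calcitriol and 96.2 with calcidiol, a difference of 2.35. Slco1a6, an organic anion transporter, read 24.7 with vehicle, 373 with calcitriol and 146 with calcidiol, a difference of 3.88 that starts from a dim vehicle signal. Glucose, lactate and carboxylate transporters lay the other way, with 10 of 11 measured below 0, against 50.7% of all genes, and a median of -0.36, and none was 2-fold apart. Their lowest member was Slc16a7, a monocarboxylate transporter, at -0.88, and Slc2a4, the insulin-responsive glucose transporter, was at least 2.19-fold lower by its bound.

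Keratin genes stood out among the structural genes. Of 10 measured genes of the keratin and cornified envelope list, 5 were at least 2-fold higher and none lower, with a median of 0.64. Over all genes 0.961% were at least 2-fold higher and 1.62% lower. The other 14 of the 24 list genes on the array were not read well above background. Krt17, an inducible type I keratin, read 18.4 with vehicle, 2369.5 with calcitriol and 424 with calcidiol, and its vehicle signal was close to the lowest one well above background on that array, 13.4. Krt20 (probe on chromosome 11, 99289776 to 99289835, mm9), a keratin of the gut and urothelium, read 201 with vehicle, 969 with calcitriol and 891 with calcidiol, so that both hormone arrays lay far above vehicle and close together. Krt7, of simple epithelia, read 23.8 with vehicle, 96.9 with calcitriol and 45.7 with calcidiol. Sprr1a, an envelope precursor, was 2.75-fold higher and the crosslinking enzyme gene Tgm2 2.03-fold higher. The 5 others lay between Krt80, at -0.58, and Krt16, at 0.26 from a spot 4 rows or columns from the edge. By its other probe Krt80 was at 0.65.

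Desmosome and hemidesmosome genes, to which keratin filaments attach, lay mostly below 0. Of 13 measured, 11 were below 0, the median was -0.36, 2 were at least 2-fold lower and none was higher, where 50.7% of all genes were below 0 and 1.62% were 2-fold lower. Pkp1, a desmosomal plaque protein, read 352 with vehicle, 131 with calcitriol and 308 with calcidiol and was 2.75-fold lower. Ppl, the cytolinker periplakin, read 354 with vehicle, 141 with calcitriol and 312 with calcidiol and was 2.56-fold lower. The laminin-binding integrin gene Itgb4 was at -0.84 and the plakoglobin gene Jup at -0.47. For Pkp1 and Ppl the calcidiol array lay nearer to vehicle than to calcitriol. Eppk1, a related cytolinker gene outside that list, was lower by both of its probes, at -1.10 and -1.07. Among 16 measured tight junction genes only Cldn2 was 2-fold apart, and the lowest, Tjp3, was at -0.21, while Cldn15 was at least 2.51-fold higher by its bound.

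Genes of innate defence included some of the brightest transcripts that were higher. C3 (chromosome 17, 57343416 to 57343475, mm9), the central component of complement, read 1926 with vehicle, 12666 with calcitriol and 9717 with calcidiol, 6.43-fold higher with calcitriol, and its other probe gave 2.52 beside 2.68. Cebpd (chromosome 16, 15888459 to 15888518, mm9), a C/EBP transcription factor of the acute phase response, read 399.8 with vehicle, 3770.3 with calcitriol and 2868 with calcidiol and was 9.22-fold higher. For both genes the calcidiol array was close to the calcitriol array, at log2 differences from vehicle of 2.22 and 2.73. Of 10 measured complement genes, C3 was the one that was 2-fold higher, and 3 were lower, against 0.961% and 1.62% of all genes. The lectin-pathway protease gene Masp1 was at -2.97, from a dim calcitriol signal of 18.7 read 5 rows or columns from the edge. The C1s genes C1s2 and C1s1, near-identical copies whose probes may share RNA, were at -1.15 and -1.11. Of 17 measured C/EBP and Kruppel-like factors, Cebpd was the one that was 2-fold apart.

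Inflammatory gene lists varied in how many members were 2-fold apart, where 0.961% of all genes were higher and 1.62% lower. Of 32 measured NF-kappaB components, cytokines and acute phase genes, Lifr, a receptor for the cytokine LIF, was 2-fold higher at 1.01, with 0.58 over its other probes, none was lower, and the median was 0.08. Il1rl1, the receptor of interleukin 33, was at least 2.39-fold lower by its bound. Among 13 measured chemokines 2 were higher, Ccl20 at 1.54 and the neutrophil attractant gene Cxcl5 at 1.29, and 2 lower, Ccl5 at -1.32 and Ccl17 at -1.02. Cxcl5 read 61.4 with vehicle, 153 with calcitriol and 176 with calcidiol, and here calcidiol gave the highest signal. None of 38 measured interferon-stimulated genes was 2-fold apart, although 25 were below 0, against 50.7% of all genes, with a median of -0.15. Oas3, a sensor of double-stranded RNA, was at least 2.79-fold lower by its bound. The lowest measured one, Parp14, was read near the edge at -0.97 and gave 0.33 by its other probe. None of 20 measured antigen presentation genes was 2-fold apart.

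Growth factor systems showed single members at both ends. Igf1 (chromosome 10, 87393516 to 87393575, mm9), insulin-like growth factor 1, read 584 with vehicle, 3356 with calcitriol and 969 with calcidiol, 5.61-fold higher, and its 2 other probes averaged 1.44, from 0.31 to 2.56. Ghr, the growth hormone receptor, read 215 with vehicle, 971 with calcitriol and 305 with calcidiol, 4.41-fold higher, with a mean of 1.91 over 3 other probes. With calcidiol both lay much closer to vehicle, at 0.62 and 0.39. In the insulin-like growth factor list Igfbp6, a binding protein gene, was lower at -1.09, and Igfbp4, another, was at least 4.05-fold lower by its bound (54.7 with vehicle, 12.2 with calcitriol and 21.8 with calcidiol). Nrg4, a ligand of the ErbB4 receptor, read 80.5 with vehicle, 262 with calcitriol and 139.8 with calcidiol, a difference of 1.67 with 1.20 over its other probes. Btc, a ligand of the EGF receptor, was lower at -1.15 from dim spots near the edge. Gfra1, a receptor for the growth factor GDNF, was higher by both of its probes, at 1.44 and 1.65, and was at -0.09 with calcidiol. Its vehicle signal by the brighter probe was dim, at 22.1.

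Fibroblast growth factor genes were more often lower. Of 18 measured, 4 were at least 2-fold lower and 1 higher, with a median of -0.21, against 1.62% and 0.961% of all genes. Fgf1, which binds all receptors of the family, read 205 with vehicle, 31.5 with calcitriol and 147 with calcidiol, 6.67-fold lower. Fgfr1, a receptor, read 1289.7 with vehicle, 408 with calcitriol and 1125 with calcidiol, a difference of -1.69, although its other probes averaged -0.65. The ETS factor gene Etv1, a target of this signalling, and Fgf21 were at -1.42 and -1.04, Etv1 from a dim calcitriol signal of 17.9. Fgf7, the keratinocyte growth factor, was the higher member, with signals of 88.3 with vehicle, 207 with calcitriol and 161 with calcidiol. Fgf5, another ligand, read 6.31 with vehicle, 108 with calcitriol and 12.6 with calcidiol, at least 7.89-fold higher by its bound.

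Of 31 measured Wnt pathway genes 4 were at least 2-fold lower and none higher, with 21 below 0 and a median of -0.26, against 1.62% of all genes 2-fold lower and 50.7% below 0. The 4 were the ligand genes Wnt9a, Wnt6 and Wnt5b and the factor gene Lef1. Wnt9a (chromosome 11, 59146953 to 59147012, mm9), a secreted ligand, read 691 with vehicle, 173 with calcitriol and 419 with calcidiol, 4.09-fold lower with calcitriol. Wnt6 read 678 with vehicle, 292 with calcitriol and 483 with calcidiol and Wnt5b 449 with vehicle, 201 with calcitriol and 305 with calcidiol, and both were lower, at -1.25 and -1.19. Lef1, a transcription factor that answers Wnt signals, read 178 with vehicle, 72.3 with calcitriol and 122 with calcidiol, a difference of -1.33. Wnt7b, also a ligand, was the highest member of the list and had the opposite sign, at 0.92 and 1.07 by its 2 probes. Apcdd1, an inhibitor of Wnt signalling outside the list, read 788 with vehicle, 3878 with calcitriol and 1519.7 with calcidiol, 4.81-fold higher, with 2.09 over 2 other probes.

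Notch and TGF-beta family genes also lay more often below 0 than above it. Of all genes measured 50.7% were below 0, 1.62% were at least 2-fold lower and 0.961% were at least 2-fold higher. Of 16 measured Notch pathway genes 13 were below 0, with a median of -0.27. The target gene Hey1 was lower at -1.27 from a dim calcitriol signal of 16.6. Of 35 measured TGF-beta and BMP genes 24 were below 0, with a median of -0.13. The ligand genes Bmp2 and Inhba, at -1.42 and -1.33, and Snai1, a repressor of epithelial genes, at -1.20, were at least 2-fold lower. For Bmp2 the calcitriol signal was dim, at 17.1. Id3, an inhibitor of basic helix-loop-helix factors, read 708 with vehicle, 1661 with calcitriol and 1568 with calcidiol, 2-fold higher on both hormone arrays, and Id2 was at 1.01 near the edge. Immediate early genes were lower in 4 of 31 cases and higher in none: Egr2 at -1.29, the orphan nuclear receptor gene Nr4a1 at -1.19, Egr1 at -1.12, with signals of 2216 with vehicle, 1046 with calcitriol and 1861 with calcidiol, and Dusp10. Nuclear receptors as a list lay below 0 in 20 of 27 cases, with a median of -0.19.

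Vasoactive systems had members far apart on both sides. Npr3, the clearance receptor for natriuretic peptides, read 280.4 with vehicle, 2911 with calcitriol and 1268 with calcidiol, but its other probe gave 0.86 against 3.34. Edn1, endothelin 1, read 342 with vehicle, 917 with calcitriol and 611 with calcidiol, 2.62-fold higher. Agt, the precursor of angiotensin, read 779 with vehicle, 266 with calcitriol and 569 with calcidiol, 2.99-fold lower. Gucy1a2, a subunit of soluble guanylate cyclase, was lower at -1.92 from a dim calcitriol signal. Prkg2, a kinase that cyclic GMP activates, was higher at 1.41 from a dim vehicle signal. The median of the 12 measured genes was 0.00. Gper1, a membrane receptor that binds estrogen, read 1336 with vehicle, 420.3 with calcitriol and 929 with calcidiol, a difference of -1.70.

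Extracellular matrix genes lay mostly below 0, beside 50.7% of all genes below 0 and 1.62% at least 2-fold lower. Collagens and laminins had 17 of 23 measured members below 0, 3 at least 2-fold lower and none higher, with a median of -0.24. Matricellular proteins and small proteoglycans had 17 of 25 below 0, 4 lower and 2 higher, also with a median of -0.24. Postn (chromosome 3, 54194483 to 54194542, mm9), the adhesive matrix protein periostin, read 1647 with vehicle, 272 with calcitriol and 707 with calcidiol, 6.19-fold lower, with -2.55 over 2 other probes. Dcn, the proteoglycan decorin, read 163 with vehicle, 32.4 with calcitriol and 89.6 with calcidiol, 5.16-fold lower. Col1a1, a chain of type I collagen, read 243 with vehicle, 103 with calcitriol and 152 with calcidiol, a difference of -1.28 with -1.13 over its other probes. Col6a2, a chain of type VI collagen, read 79.5 with vehicle, 27.1 with calcitriol and 67.2 with calcidiol, a difference of -1.59. Col5a3, a collagen gene outside the list, read 396 with vehicle, 123 with calcitriol and 227 with calcidiol, a difference of -1.72. Ltbp1, which holds latent TGF-beta in the matrix, was at -1.78 by its brightest probe and -0.56 by the other. Against this lean, Spp1 and the microfibril gene Fbn1, at 1.58 from a dim vehicle signal, were higher.

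Genes that act on the matrix lay on both sides of 0. Serpinh1 (chromosome 7, 106493971 to 106494030, mm9), the collagen chaperone HSP47, read 10764 with vehicle, 3443 with calcitriol and 10335 with calcidiol, 3.20-fold lower with calcitriol and nearly level with calcidiol. Of 24 measured proteases and inhibitors 19 were below 0, against 50.7% of all genes. Serpine2, read in the outermost row or column, was among the 2 that were at least 2-fold lower, against 1.62% of all genes. The membrane metalloprotease gene Mep1a was at least 20.9-fold higher by its bound (13.2 with vehicle, 286 with calcitriol and 211 with calcidiol). Adamts14, a procollagen peptidase gene outside that list, was higher by both of its probes, at 1.13 and 1.49. Integrins were below 0 in 9 of 12 cases, with Itga3 and Itgb3 both lower at -1.02.

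Markers of fibroblasts and pericytes overlapped with the matrix lists. Of 14 on the array 4 were read well above background: Postn, Dcn and Col1a1, the lower matrix genes given above, and the smooth muscle actin gene Acta2, at 0.08 read 2 rows or columns in from the edge, with -1.09 by a second probe. Col1a2, Col3a1, Pdgfra, Pdgfrb, Thy1, Lum, Fap, Cspg4, Rgs5 and Des stayed at background on all 3 arrays. The summed signal of the 14 was 9806 with vehicle, 8777 with calcitriol and 8008 with calcidiol, most of it from Acta2. Without Acta2, left out after the values were seen, it was 2107 with vehicle, 451 with calcitriol and 1008 with calcidiol. That of 14 endothelial markers was 2343, 2348 and 2249, with Pecam1, Cdh5 and 7 others not well above background. This near-level sum covers members that differed. Of the 5 measured, 3 were below 0 and 2 above, from Flt1 at -1.15 to Egfl7 at 0.53, with a median of -0.48. Whether other cells had a part in the matrix result was not tested.

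Contractile and cytoskeletal genes differed singly rather than as a set. Of 23 measured genes of the smooth muscle and SRF-YAP list, Cnn1, the actin-binding protein calponin 1, was higher, with signals of 116 with vehicle, 1035 with calcitriol and 469.8 with calcidiol, and the myosin light chain gene Myl9 was lower, at -1.04. The median was -0.04. Dmpk, a kinase of muscle and other cells, read 707 with vehicle, 4119 with calcitriol and 2803 with calcidiol, 5.69-fold higher. Srgap1 and Srgap3, which switch off small GTPases of the cytoskeleton, read 291 with vehicle, 1379 with calcitriol and 702 with calcidiol and 76.1 with vehicle, 414 with calcitriol and 336 with calcidiol, and were higher at 2.21 and 2.41. Srcin1, an inhibitor of SRC, read 15.4 with vehicle, close to the lowest signal well above background there, 621 with calcitriol and 331 with calcidiol. Ptk2b, a kinase that works with SRC, was 2.21-fold lower, and the median of the 28 SRC and focal adhesion genes was -0.01. Both Map2 and Mapt, which bind microtubules, were lower, Map2 at -1.33 and -1.34 over 2 other probes, and Mapt at -1.09 and -1.04. Phactr1, an actin regulator, read 156 with vehicle, 53.8 with calcitriol and 126 with calcidiol, with -1.73 over 3 other probes beside -1.57. Cav1, the coat protein of caveolae, was lower by both probes, at -1.64 and -1.04, and was at 0.00 with calcidiol.

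Several bright transcripts of other kinds were higher with calcitriol. Cib2 (chromosome 9, 54393185 to 54393244, mm9), a calcium- and integrin-binding protein, read 4717 with vehicle, 24559 with calcitriol and 10551 with calcidiol, 5.09-fold higher, and its other probe gave 2.69. Tspan18, a tetraspanin that interacts with calcium entry channels, read 244 with vehicle, 997 with calcitriol and 665 with calcidiol, 3.99-fold higher. Cacna1a, a voltage-gated calcium channel, was higher by both probes, at 1.25 and 1.53, and the T-type channel gene Cacna1g was lower, at -1.28 and -1.10. Tesc, a calcium-binding protein, read 531 with vehicle, 1599.9 with calcitriol and 657 with calcidiol, at 1.56 and 1.61 by its probes, and Mcub, a subunit of the mitochondrial calcium uniporter that dampens it, was lower at -1.05 and -1.31. Pkdcc, a secreted tyrosine kinase, read 3389.5 with vehicle, 9394 with calcitriol and 7045 with calcidiol from a spot near the edge, with 1.98 by another. Ptprj, a receptor phosphatase, was at 1.55 and 1.58.

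**Figure D3:**
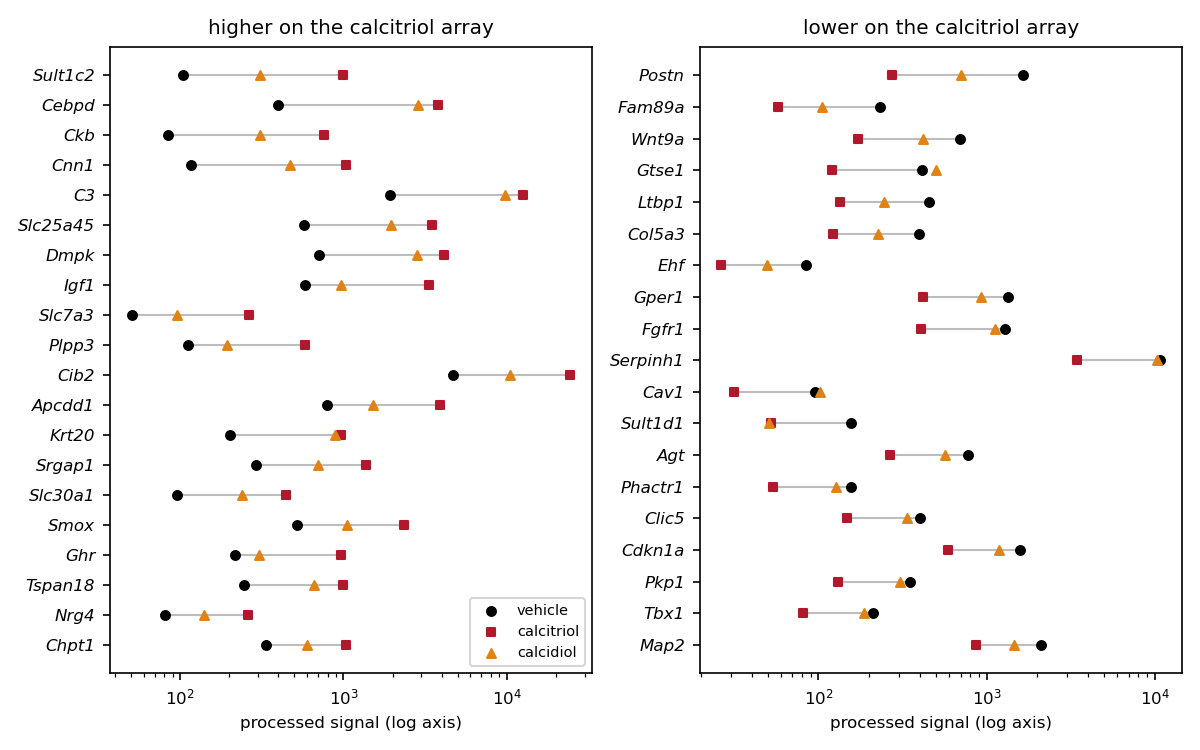
Processed signals (log axis) of 20 genes that were higher and 19 that were lower on the calcitriol array, with vehicle as circles, calcitriol as squares and calcidiol as triangles, 1 array each. For Cebpd, C3 and Krt20 the calcidiol triangle lies by the calcitriol square, and for Serpinh1, Cav1 and Gtse1 it lies by or beyond the vehicle circle.

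The calcidiol array also read the genes of middle rank. All 34 of the higher genes of rank 11 to 60 that lay clear of the edge and of the dimmest signals were above vehicle with calcidiol, 19 of them at least 2-fold, with a median of 1.08 against 2.23 with calcitriol. Of the 20 lower genes so chosen 19 were below vehicle, 3 of them at least 2-fold, with a median of -0.55 against -1.63. Since the vehicle array is shared, an error on it would shift both readings. The genes were also chosen for their distance from that array. Shares over all genes with calcidiol are not given here, so these counts cannot be weighed against them. The exception among the 20 lower genes was Gtse1, a gene of the G2 phase, which read 412 with vehicle, 120.5 with calcitriol and 501 with calcidiol. Sult1d1, a sulfotransferase, was the only one of the 20 to be lower with calcidiol than with calcitriol, at 156 with vehicle, 52.1 with calcitriol and 51.1 with calcidiol. The higher genes nearest to vehicle with calcidiol were Ggt1, the gamma-glutamyltransferase of the proximal tubule brush border, at 0.25 against 1.60, and Ankrd33b, at 0.28 against 1.70.

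Metabolic enzymes were among the highest genes of middle rank. Sult1c2, a sulfotransferase of the kidney, read 105 with vehicle, 989 with calcitriol and 306 with calcidiol, 9.23-fold higher. Ckb, the brain-type creatine kinase, read 83.8 with vehicle, 764 with calcitriol and 307 with calcidiol, 8.90-fold higher, with 3.06 by its other probe. Smox, which oxidises spermine, read 519 with vehicle, 2352 with calcitriol and 1057 with calcidiol, 4.43-fold higher, with 2.35 by its other probe. Chpt1, an enzyme of phosphatidylcholine synthesis, read 338 with vehicle, 1038 with calcitriol and 601 with calcidiol, at 1.59 and 1.61. Plpp3, a lipid phosphatase, read 112 with vehicle, 583 with calcitriol and 192 with calcidiol, a difference of 2.35. Hoga1, a mitochondrial enzyme of hydroxyproline breakdown, read 381 with vehicle, 1237 with calcitriol and 517 with calcidiol, a difference of 1.67. Cyp1b1, a cytochrome P450, read 40.7 with vehicle, 513 with calcitriol and 178 with calcidiol and was the only one of 14 measured P450 and aryl hydrocarbon receptor genes to be 2-fold apart. Aldh3a1, an aldehyde dehydrogenase of that list, was at least 3.03-fold lower by its bound, from a spot 2 rows or columns from the edge. Fbp2, the muscle form of fructose bisphosphatase, was higher at 3.07 from a dim vehicle signal.

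Genes of triglyceride storage, lipolysis and fatty acid oxidation were higher in 3 cases and most measured sterol genes lay a little below 0. Among 38 measured genes of the first kind, Mgll, monoacylglycerol lipase, read 38.6 with vehicle, 268 with calcitriol and 181 with calcidiol. Dgat2, which makes triglyceride, read 430.1 with vehicle, 1334 with calcitriol and 938 with calcidiol near the edge. Acox2, a peroxisomal oxidase, was at 1.53 from a dim vehicle signal of 20.8. Ppara, the receptor that drives fatty acid oxidation, was lower at -1.02, with -0.46 by its other probe. The shares over all genes were 0.961% at least 2-fold higher and 1.62% lower. Of 29 measured genes of cholesterol synthesis and uptake 27 were below 0, against 50.7% of all genes, none was 2-fold apart and the median was -0.30. They include the synthase gene Hmgcs1 at -0.30. All 10 measured genes of sterol efflux and LXR targets were below 0, with a median of -0.32, but the cholesterol exporter Abca1 was at least 6.54-fold higher by its bound (7.50 with vehicle, 89.4 with calcitriol and 67.0 with calcidiol). Npc2, which moves cholesterol out of lysosomes, was the highest of the 29 cholesterol genes at 0.44. Relative to all genes both sterol medians kept their sign under each scaling.

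Glycolytic and hypoxia-response genes lay mostly below 0. Of 20 measured glycolysis genes 19 were below 0, with a median of -0.23, against 50.7% of all genes below 0. Hk2, the inducible hexokinase, read 390.4 with vehicle, 173 with calcitriol and 388 with calcidiol, and Pfkp, a phosphofructokinase, read 5009.6 with vehicle, 2499 with calcitriol and 5122 with calcidiol, with a mean of -1.18 over 3 other probes; both were at least 2-fold lower with calcitriol, against -0.12 and -0.08 with calcidiol. The glucose transporter gene Slc2a1 was at -0.76 and Aldoc at -0.65. Of 35 measured hypoxia-response genes 28 were below 0, with a median of -0.37. Jmjd6, at -1.52, was read near the edge and gave -0.54 by its other probes, and Ero1a, an oxidase of the endoplasmic reticulum, read 5686 with vehicle, 2836 with calcitriol and 6004 with calcidiol. The oxygen sensor gene Egln3 was at -0.94 and the mitophagy gene Bnip3 at -0.51, whereas Vegfa was at 0.22. The secreted glycoprotein gene Stc2 was higher, at 1.94 from a dim vehicle signal of 16.6. The 2 lists share 2 genes, Pfkfb3 and Pfkfb4.

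Most genes of one-carbon and nucleotide synthesis, tRNA charging, mitochondrial ribosomes and the proteasome lay a little above 0. Cholesterol synthesis genes, given above, lay the other way. So did fatty acid synthesis and elongation genes, with 19 of 23 measured below 0 and a median of -0.17. Of 32 measured genes of serine, one-carbon and nucleotide synthesis 27 were above 0, with a median of 0.17, from Aldh1l2 at -0.51, 2 rows or columns from the edge, to the hydroxymethyltransferase gene Shmt1 at 0.54. Of 19 aminoacyl-tRNA synthetases 17 were above 0 (median 0.21), of 64 mitochondrial ribosomal proteins 51 (median 0.14), and of 30 proteasome subunits 28 (median 0.13), against 49.3% of all genes. No member of these 4 lists was 2-fold apart. The median scanner error of a single gene was 0.20, and each of the 4 medians kept its sign relative to all genes under each scaling. Of 67 measured respiratory chain and ATP synthase genes 48 were below 0, with a median of -0.07, and the 1 that was 2-fold lower, Cox6c, was read near the edge.

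None of 50 measured G1/S and DNA replication genes or 47 G2/M and mitosis genes was 2-fold apart, and the medians were 0.02 and 0.05. Ccnd1, cyclin D1, was the lowest of the first list at -0.29 and Ccne2, cyclin E2, the highest at 0.55, from dim signals. The second list ran from Spc25 at -0.23 to Kif18a at 0.26. Gtse1, given above, is outside both lists. Cdkn1a was the only one of 37 measured kinase inhibitors and p53 targets to be 2-fold apart. None of 76 cytosolic ribosomal proteins, 30 apoptosis regulators, 41 lysosome and autophagy genes or 32 genes of the heat shock and chaperone list was 2-fold apart.

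Transcription factors were found in both directions. Among 18 measured tubule factors Irx3 was higher, with signals of 117 with vehicle, 297 with calcitriol and 201 with calcidiol, and Ehf and Lhx1 were lower. The shares over all genes were 0.961% at least 2-fold higher and 1.62% lower. Ehf, an ETS factor of epithelia, read 84.6 with vehicle, 26.5 with calcitriol and 49.3 with calcidiol, with -1.39 by its other probe beside -1.71. Lhx1, of the developing nephron, read 938 with vehicle, 447 with calcitriol and 723 with calcidiol. Atoh8, a basic helix-loop-helix factor, read 73.3 with vehicle, 294 with calcitriol and 171 with calcidiol, and Sox8 gave 2.60 and 2.42 by its probes, the brighter of them 2 rows or columns from the edge. Ebf1 was lower by all its probes, at -1.89 from a spot 3 rows or columns from the edge and a mean of -1.72, and Tbx1 read 212 with vehicle, 80.8 with calcitriol and 186 with calcidiol. Nfatc2, a factor that calcineurin activates, was at least 10.1-fold lower by its bound, with 137 on the vehicle array, 8.90 with calcitriol and 46.9 with calcidiol, while its relative Nfatc1 was at -0.88 and -0.86.

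**Figure D4:**
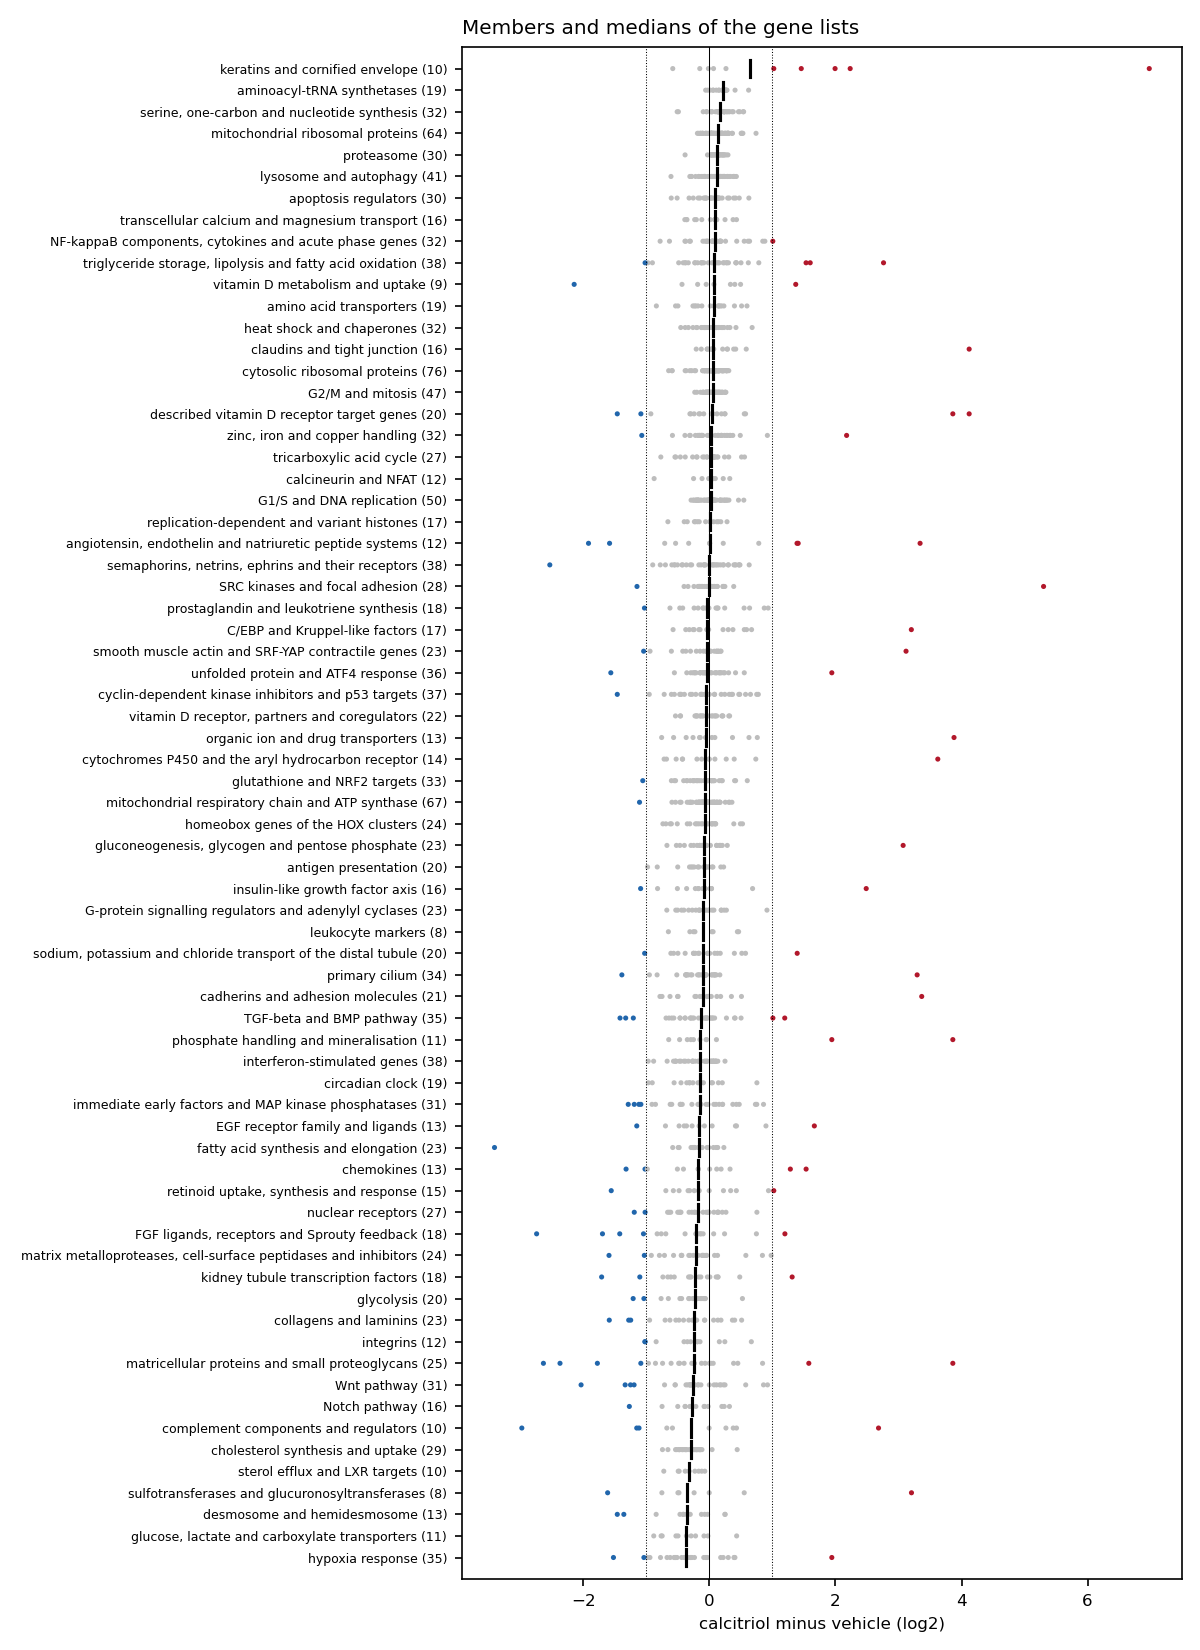
Members (points) and medians (black bars) of the gene lists with at least 8 measured genes, as log2 differences, calcitriol minus vehicle, with the number measured in brackets; red points are at least 2-fold higher, blue ones at least 2-fold lower and dotted lines mark 2-fold. The keratin list has the highest median, 0.64, and the hypoxia response list the lowest, -0.37, while the solid line marks the median of all genes.

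Over all 76 lists, which hold 2169 genes on the array, 1679 were measured, 38 of them at least 2-fold higher and 61 lower, which is 2.26% and 3.63%. Since the lists were made with results of these data known, these shares say nothing about the groups covered. In 28 lists no measured member was 2-fold apart. Relative to all genes, the sign of the median turned under another normalisation or in the value table for the lists of the receptor machinery, the vasoactive systems, SRC, G1/S, the tricarboxylic acid cycle and histones. It turned with the mean over probes, another filter or other spots for calcium and magnesium transport, semaphorins and ephrins, calcineurin, prostaglandins, podocyte markers and leukocyte markers. Another filter also turned it for complement, amino acid transporters, HOX genes and distal convoluted tubule markers. In these lists single members could still be far apart, as with Sema3d, a guidance cue, which read 303 with vehicle, 53.8 with calcitriol and 123 with calcidiol, 5.77-fold lower, and the epoxide hydrolase gene Ephx2, at -1.03.

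Genes that only 1 array read well above background give bounds, not folds. Barx2, a homeobox factor, read 3.83 with vehicle, 143 with calcitriol and 68.1 with calcidiol, at least 10.5-fold higher. Rapsn, which anchors acetylcholine receptors, read 13.3, 122 and 21.6, at least 8.90-fold higher. Bhmt, which remethylates homocysteine, read 4.26, 116 and 9.77, at least 8.47-fold higher, and was not well above background with calcidiol. Hvcn1, a proton channel, Arg2, the mitochondrial arginase, and Abcg5, a sterol transporter, were at least 6.80-fold, 5.05-fold and 4.73-fold higher. In the other direction Cd55, which limits complement activation, was at least 2.99-fold lower. Ppp1r3c, which targets a phosphatase to glycogen, read 51.2, 4.71 and 32.3, at least 3.79-fold lower.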

How the data were processed

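Total RNA from the 3 cultures was amplified, labelled with Cy3 and read on 1-colour Agilent mouse arrays, 1 per treatment. The scanner files the authors deposited give the intensity of each spot, not log-transformed. Their processed signals come from Feature Extraction 10.7.1.1, per the file headers, which also place probes on mm9; the version in the submitters' processing notes is 9.5.1.1. Each array held 62976 spots, 59305 of them not controls. Spots flagged as outliers on any array were left out, which removed 1489 of 56605 probes. Processed signals were taken as log2 minus the array's 75th percentile. Of the probes 58.3% were named by accession through a RefSeq gene table of GRCm38.p6, used for names and promoters only, 0.917% were named there by synonym, and the rest kept the design's name. Which exon or UTR a probe lies in was not analysed here. The brightest probe stood for its gene where it was well above background on both arrays. Where 1 array had no such probe, a bound was the bright level over the higher of the dim probe's own level and the lowest signal well above background. The deposited value table, also an intensity, served as an alternative.

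With 1 array a group no test was run. Members and lists were chosen with earlier results of these data known. Genes were named by rule: ranks 11 to 60 in each direction, over 6 rows and columns from the edge and with signals at least 3 times the lowest well above background; genes whose probes were all 2-fold apart; list members 2-fold apart; the highest and lowest of each of 76 lists; the 15 largest bounds each way; and a fixed set of vitamin D genes. Some genes the rule takes are not reported. Named after their values were seen were Itih3, Cdh16, genes whose probes disagree, and some list members under 2-fold or with smaller bounds. The script that counts was tested on simulated data. Software was limma 3.58.1 under R 4.3.3, and numpy 2.4.6, pandas 2.3.3 and matplotlib 3.10.9 under Python 3.11.15. Alternatives were median centring, quantile and loess normalisation, normexp with an offset of 50, an offset of 32, other filters, other thresholds, all probes, outlier spots kept and edge spots left out.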

Additional observations from a re-analysis of the deposited data

How the results depend on the processing

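The counts of genes at least 2-fold higher and lower, 160 and 270, stayed within 1.5 times of these values with median centring (222 and 184), quantile (185 and 237) or loess (186 and 239) normalisation, outlier spots kept (167 and 283), the mean over probes (155 and 247), the value table (178 and 232) and edge spots left out (144 and 221). Normexp correction followed by quantile normalisation gave 93 and 105. With 32 added to each signal they were 105 and 138, and a filter that drops genes under the 25th percentile of signal gave 93 and 146. Asking for detection on 1 array instead of both gave 350 and 631. Thresholds of 1.5-fold and 3-fold gave 563 and 1040, and 66 and 47. Leaving out edge spots and dim genes together, chosen after the data were seen, gave 88 and 145. Of 1864 values of 175 genes named in the text under these settings other than the last, 1653 lay within the scanner's error of the value reported. A further 208 moved by more than that error. The other 3, all of genes at least 2-fold apart, had the opposite sign: without edge spots Fam3c became 0.27, Grik5 0.22 and Noa1 0.094. Sign changes of genes under 2-fold apart were not counted separately and fall among the 1653 and the 208. Of 836 list medians under the same settings 821 moved by less than the median error of a member. No paired analysis was possible because each group has 1 array. Signal over background limits the size of differences that start from dim spots, and no alternative here stands in for a replicate.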

Other observations

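Other genes that the report does not describe were higher. Snap91, a clathrin adaptor of nerve terminals, read 127 with vehicle, 716 with calcitriol and 274 with calcidiol. Gdpd5, a phosphodiesterase, read 426 with vehicle, 2075 with calcitriol and 1255 with calcidiol, a difference of 2.25 beside 1.46 by its other probe. Sh3rf2, a ubiquitin ligase, was at 1.71 and 2.01 by its probes near the edge, and Adamtsl5, a matrix protein, at 1.06 and 2.07. Zdhhc13, a palmitoyltransferase, was at 1.07 and 1.01. Lower by every probe were Vegfd, a lymphatic growth factor, at -1.18 and -1.17, Cbr2, a carbonyl reductase, at -1.37 and -1.09, and Flt1, a receptor for vascular endothelial growth factor, at -1.15 and -1.33. Hsp90b1, the chaperone of the endoplasmic reticulum, read 18343 with vehicle, 6358 with calcitriol and 20823 with calcidiol, and Cox6c, a subunit of cytochrome oxidase, read 14405 with vehicle, 6846 with calcitriol and 16505 with calcidiol. Both were read 4 rows or columns from the edge and had no other measured probe.
Among genes read in the 2 outermost rows and columns 1.84% were at least 2-fold higher and 4.38% lower, against 0.871% and 1.36% of genes over 20 rows and columns inside.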
